A study of Mus musculus with 378 samples.

Results

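Tumour-infiltrating CD8 T cells were divided by whether RNA of Tcf7, the gene of the transcription factor TCF-1, was found in the cell. Single-cell libraries whose title holds CD8 were kept if at least 1000 genes lay above 0 FPKM, and a kept cell was called Tcf7-positive above 0 FPKM of Tcf7 and Tcf7-negative at 0. FPKM is a fragment count scaled by transcript length and library size. The kept cells were thus divided by their Tcf7 level alone, and Tcf7 is left out of the results. This gave 57 Tcf7-positive and 84 Tcf7-negative CD8 cells, out of 374 single-cell libraries in the series. Of 94 wild-type (WT) CD8 libraries 67 were kept, of which 16 (23.9%, exact 95% interval 14.3 to 35.9) were Tcf7-positive and 51 Tcf7-negative. Of 92 CD8 libraries labelled as knockout (KO) for Il27ra, the receptor of the cytokine IL-27, 74 were kept, of which 41 (55.4%, 43.4 to 67) were Tcf7-positive and 33 Tcf7-negative.

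All cells came from B16F10 melanoma, a transplantable mouse skin tumour line, grown in C57BL/6 mice, and no further allele or agent is named for either group. Libraries were made with Smart-seq2, which copies and amplifies full-length cDNA of 1 cell per well. The labels name no animal and do not give the ages or the nature of the Il27ra allele, so each genotype is 1 sample and its cells are not replicates. No p-value was therefore computed, every SD is over cells, and intervals on shares of cells are exact Clopper-Pearson 95% intervals that cover counting error only.

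TCF-1 is a DNA-binding protein of the TCF and LEF family that can act with beta-catenin and is needed for T cell development. In CD8 cells it is high in naive and memory cells and low in terminal effector cells. In chronic infection and tumours it marks exhausted cells that keep the capacity to renew, often called progenitor or stem-like exhausted cells, which carry PD-1 with SLAMF6, while terminally exhausted cells carry PD-1 with TIM-3 and CD39.

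The boundary of the split rested on few reads in some cells. The lowest Tcf7 levels called positive were 2.51, 2.53 and 3.76 FPKM in WT, about 1.01, 0.983 and 2.01 estimated reads, and the next was 11.98. In KO-labelled cells the lowest were 2.42 FPKM, about 0.999 reads, and then 19.25. The median of the positive cells was 358.4 FPKM in WT and 233.7 in KO, with highest values of 1584 and 1453. For the other threshold, the libraries just outside and just inside 1000 genes held 855 and 1068 genes in WT and 862 and 1476 in KO. A cell at 0 FPKM may hold Tcf7 RNA that was not sequenced.

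Depth and cell content differed between the sides. Reads per cell, estimated from the steps that single reads make in low FPKM values, had medians of 274448 in WT Tcf7-positive, 533378 in WT Tcf7-negative, 434168 in KO Tcf7-positive and 513222 in KO Tcf7-negative cells, and 16 WT Tcf7-negative cells lay under 150000 against 0, 2 and 1 in the others. Of WT Tcf7-negative cells 11 of 51 lacked RNA of B2m or of all 3 Cd3 chain genes, and so did 3 of 33 KO Tcf7-negative cells, but 0 of 57 Tcf7-positive cells. At least 3 markers of macrophages, dendritic cells or antigen presentation were found in 8 of 51 WT and 12 of 33 KO Tcf7-negative cells, and in 0 of 16 and 3 of 41 Tcf7-positive cells. Of 7 class II antigen presentation genes, the summed level reached 17.69 in WT and 17.13 in KO Tcf7-negative cells on the log2 scale. The medians were 0. The highest values in Tcf7-positive cells were 8.26 in WT and 9.18 in KO. In KO Tcf7-positive cells H2-Aa, H2-Ab1, H2-Eb1, Ciita and H2-DMb1 were at 0. The B cell genes Cd79a, Ms4a1 and Pax5 were at 0 on all 4 sides. Another B cell gene, Cd79b, was above 0 in 6.25% of WT Tcf7-positive, 9.76% of KO Tcf7-positive and 3.03% of KO Tcf7-negative cells. Blnk was above 0 in 6.06% of KO Tcf7-negative cells. The label CD8 held for most cells: Cd8a or Cd8b1 without Cd4 was found in 13 of 16, 44 of 51, 40 of 41 and 31 of 33 cells, in the order WT positive, WT negative, KO positive and KO negative. Il27ra itself was above 0 in 26 of 67 WT cells (38.8%) and in 39 of 74 labelled KO (52.7%), so its RNA was not lower in the cells labelled KO, and the genotype names below are those of the labels. Results are given over all kept cells and, for some genes and lists, also over deep T cells, a set chosen after seeing the data. This set leaves out cells lacking B2m or Cd3 RNA, cells with 3 or more of these other markers and cells under 150000 estimated reads. It keeps 16 and 28 WT and 36 and 20 KO cells, Tcf7-positive first.

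In both genotypes, Tcf7-positive cells held more RNA of S1pr1, Il7r, Lef1 and Emb, genes of tissue egress, survival, the TCF family and lactate transport, and less of the granzyme gene Gzmb and the coinhibitory receptor genes Pdcd1 and Havcr2. The difference below is the mean log2(FPKM + 1) in Tcf7-positive minus that in Tcf7-negative cells. It follows both the level and the share of cells above 0, so it is not a fold of the mean. Among genes above 0 in at least 20% of cells of either side, 790 of 6693 (11.8%) were higher by 1 or more in WT Tcf7-positive cells and 1612 (24.1%) lower, and in KO 4.97% of 6283 were higher and 16.3% lower. With each gene's values shuffled over the same cells, 21.8% of unchanged genes in WT and 13.8% in KO still passed 1 in either direction. These counts are therefore descriptions, and many genes can pass 1 without a link to Tcf7. Of 5709 genes measured in both, 2.03% were higher by 1 or more in both and 6.52% lower, and 2.03% were past 1 in opposite directions. The shared higher genes were 16.1% of those higher in WT and 40% of those higher in KO, and the shared lower genes 27.6% and 40.3%. Across genes, which are not independent replicates and share the cells and their depth, the WT and KO differences had a Pearson r of 0.301 and a Spearman rho of 0.242, and 60.6% had the same sign.

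**Figure D1:**
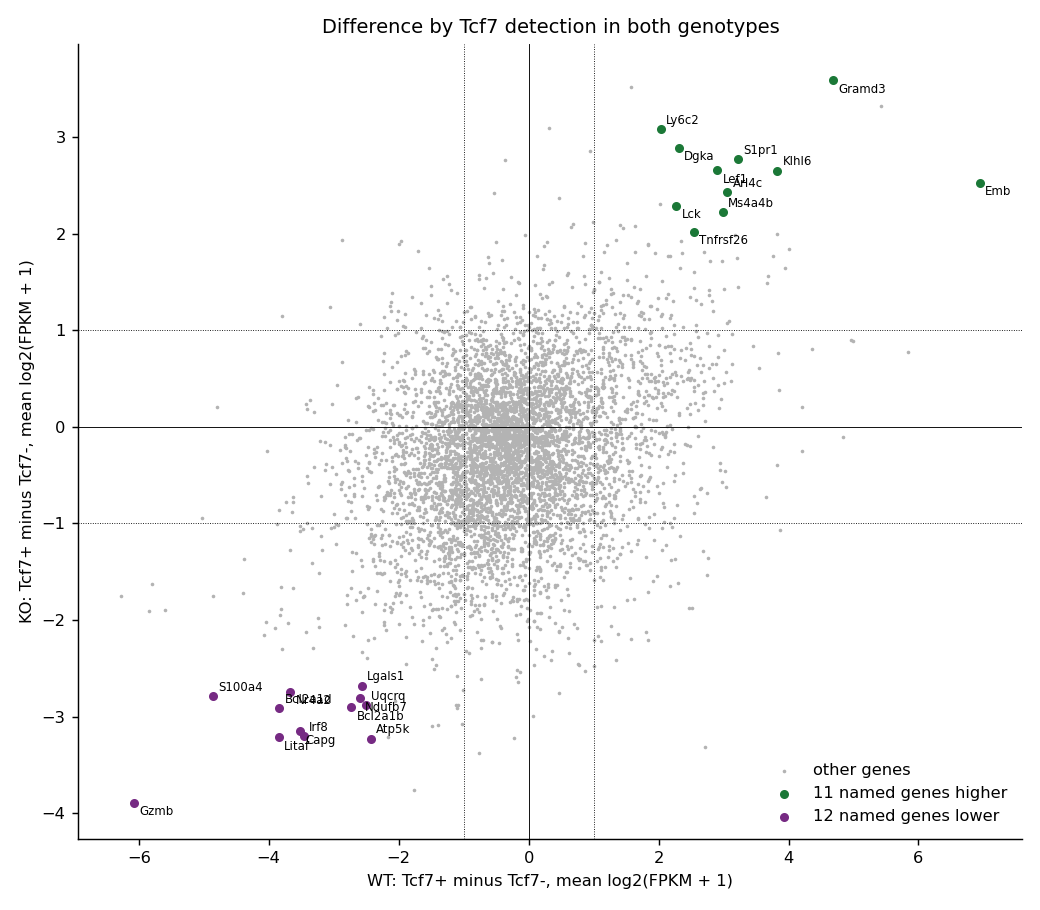
Difference of mean log2(FPKM + 1), Tcf7-positive minus Tcf7-negative CD8 cells, in WT on the horizontal and in KO-labelled cells on the vertical axis, with 1 point per gene for the 5709 genes above 0 in at least 20% of cells of either side in both genotypes. The 11 named genes that were higher in both lie at upper right (Emb at 6.94 and 2.53) and the 12 that were lower at lower left (Gzmb at -6.08 and -3.89). Dotted lines mark a difference of 1.

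S1pr1, the sphingosine-1-phosphate receptor that lets T cells leave tissue, was above 0 in 10 of 16 WT Tcf7-positive cells (62.5%, 35.4 to 84.8) and in 7 of 51 negative ones (13.7%, 5.7 to 26.3). On the log2(FPKM + 1) scale the medians were 4.76 and 0, with highest levels of 10.27 and 8.54. In KO it was above 0 in 31 of 41 (75.6%, 59.7 to 87.6) and in 13 of 33 (39.4%, 22.9 to 57.9), with medians of 7.29 and 0 and highest levels of 10.17 and 9.71. The means were 4.06 ± 3.52 (SD, n = 16 cells) and 0.84 ± 2.40 (SD, n = 51 cells) in WT, and 5.67 ± 3.72 (SD, n = 41 cells) and 2.91 ± 3.86 (SD, n = 33 cells) in KO, differences of 3.22 and 2.77. The sides overlapped in both genotypes. The marker genes Il7r and Ccr7 moved the same way to different extents. Il7r, the interleukin-7 receptor chain that supports survival, had a median of 5.59 in WT Tcf7-positive cells and 0 in negative ones, but of 7.84 and 4.86 in KO, where 21 of 33 Tcf7-negative cells (63.6%, 45.1 to 79.6) held its RNA against 8 of 51 (15.7%, 7.02 to 28.6) in WT. The Il7r differences were 3.83 in WT and 2.00 in KO. Ccr7, the receptor for lymph node chemokines, was above 0 in 4 of 16 WT Tcf7-positive and 0 of 51 negative cells, and in 16 of 41 and 8 of 33 KO cells, differences of 2.54 and 1.60. In KO the Ccr7 direction turned when FPKM was averaged before taking logs (-1.196), with the highest level, 14.56, in a Tcf7-negative cell.

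**Figure D2:**
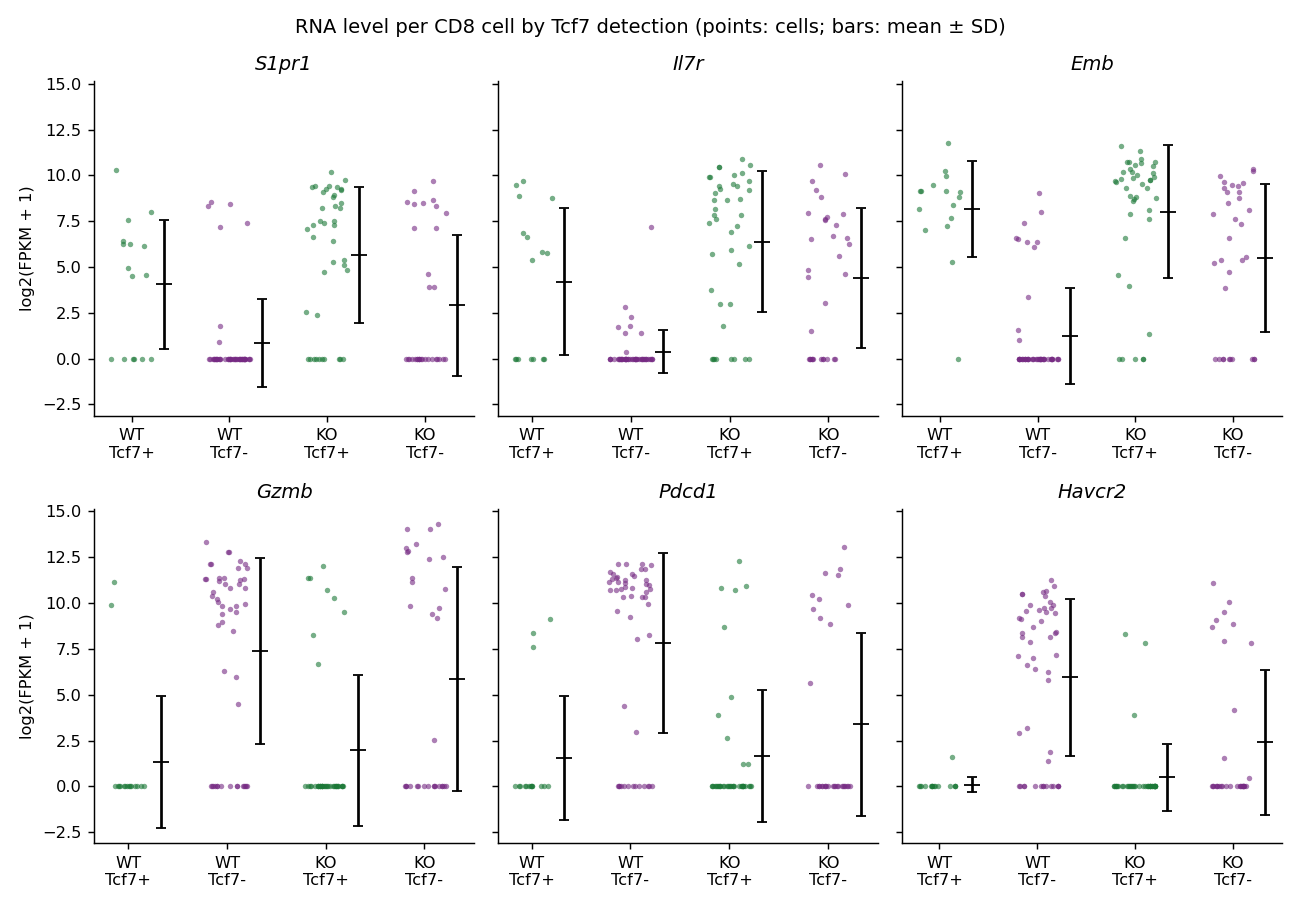
Level per cell, log2(FPKM + 1), of 3 genes that were higher (S1pr1, Il7r, Emb) and 3 that were lower (Gzmb, Pdcd1, Havcr2) in Tcf7-positive CD8 cells, with 1 point per cell, spread sideways for view, and bars for the mean ± SD over cells. S1pr1 lies above 0 in 7 of 51 WT Tcf7-negative cells, and Pdcd1 and Havcr2 are high in most WT Tcf7-negative but in few KO cells of either side.

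Genes with the largest shared higher difference were Gramd3, S1pr1, Lef1, Klhl6, Emb, Arl4c, Dgka, Lck, Ms4a4b, Ly6c2 and Tnfrsf26, ordered by whichever of their 2 differences is the smaller. Emb, which encodes embigin, a partner of monocarboxylate transporters, had the largest WT difference of any gene ranked, 6.94. Its median was 8.97 in WT Tcf7-positive cells, where 15 of 16 were above 0, and 0 in WT Tcf7-negative cells, where 11 of 51 were. In KO the medians were 9.66 and 6.60 and the difference was 2.53. Gramd3 was above 0 in 15 of 16 and 23 of 51 WT cells and in 38 of 41 and 19 of 33 KO cells, differences of 4.68 and 3.59, the latter the largest in KO. Klhl6, a ubiquitin ligase adaptor studied in B cells, differed by 3.83 and 2.65. Tnfrsf26, a decoy-type receptor of the TNF receptor family, was found in 7 of 16 WT Tcf7-positive cells but in 1 of 51 negative ones, and in 17 of 41 and 6 of 33 KO cells. Dgka, the diacylglycerol kinase that damps T cell receptor signals, differed by 2.31 and 2.89, and in deep T cells by 0.85 and 1.75.

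Lef1, the closest relative of Tcf7, was above 0 in 11 of 16 (68.8%, 41.3 to 89) WT Tcf7-positive and 18 of 51 (35.3%, 22.4 to 49.9) negative cells, and in 24 of 41 (58.5%, 42.1 to 73.7) and 8 of 33 (24.2%, 11.1 to 42.3) KO cells. Its differences were 2.90 and 2.66. The differences of Lck, Ms4a4b and Ly6c2 depended on the cells kept. Lck, the kinase that starts T cell receptor signalling, was above 0 in all 57 Tcf7-positive cells and in 39 of 51 and 27 of 33 negative ones, and its WT difference of 2.27 became -0.58 in deep T cells, where every cell of both sides held it. That of Ly6c2 turned from 2.03 to -0.26, and that of Ms4a4b became 0.29 from 2.99. In KO deep T cells the difference was 0.92 for Lck (2.29 over all kept cells), 0.12 for Ms4a4b (2.22) and 2.01 for Ly6c2 (3.08), so none of these 3 genes was higher by 1 or more in both genotypes there. The differences of S1pr1, Lef1, Klhl6, Gramd3, Arl4c, Tnfrsf26 and Il7r were above 0 in both genotypes under all 18 alternative settings run. All of these but Il7r were picked for a shared higher difference in these same cells. Settings that change only the gene filter cannot change a gene's difference, so this count of settings is no independent support.

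TCF-1 and LEF1 bind DNA with the core CTTTGA, so the 250 bases before the RefSeq transcription start (GRCm38.p6) of these 11 shared higher and the 12 shared lower genes were searched for CTTTGA and its reverse complement TCAAAG. The RefSeq table used holds 8 of the higher genes, in 16 start windows, and 10 of the lower ones, in 11. A match was found in 4 of 16 windows (25%) of higher genes, 1 window each of Lef1, Klhl6, Emb and Dgka, and in 2 of 11 (18.2%) of lower genes, those of the near-identical Bcl2a1d and Bcl2a1b, against 4544 of 32851 windows (13.8%) of all genes. A match is a description of these letters and not of a bound site. The windows of the 2 higher genes with 1 annotated start and a match, and that of Gzmb, the gene with the largest shared lower difference, which has none, are shown 5′ to 3′ along the gene's strand with the match in capitals. Emb lies at chr13:117220323-117220572 on the + strand, Klhl6 at chr16:19983050-19983299 on the - strand and Gzmb at chr14:56262335-56262584 on the - strand.
Emb: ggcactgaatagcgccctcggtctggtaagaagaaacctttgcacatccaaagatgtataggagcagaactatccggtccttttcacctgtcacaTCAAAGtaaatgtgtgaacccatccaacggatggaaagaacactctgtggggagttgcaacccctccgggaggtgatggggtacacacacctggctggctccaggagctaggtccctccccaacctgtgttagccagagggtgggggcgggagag
Klhl6: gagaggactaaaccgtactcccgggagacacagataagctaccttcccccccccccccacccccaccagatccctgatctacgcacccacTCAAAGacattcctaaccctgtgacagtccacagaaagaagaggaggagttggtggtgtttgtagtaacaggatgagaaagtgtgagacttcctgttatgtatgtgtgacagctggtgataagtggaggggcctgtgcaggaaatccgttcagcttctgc
Gzmb: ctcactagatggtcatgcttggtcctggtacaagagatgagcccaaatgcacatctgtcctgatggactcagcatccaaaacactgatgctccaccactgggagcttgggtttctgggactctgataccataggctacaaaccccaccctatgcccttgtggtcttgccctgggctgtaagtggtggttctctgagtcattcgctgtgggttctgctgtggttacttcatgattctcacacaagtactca

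Across the list of 20 homing, survival and memory genes, 18 passed the filter in WT, 15 of them higher by 1 or more and 0 lower by 1, with a median of 2.46 against -0.35 over all genes. In KO, 9 of 18 were higher by 1 or more and 1 lower, with a median of 1.03 against -0.24. Over all genes, 11.8% in WT and 4.97% in KO were higher by 1 or more. Emb, Il7r, S1pr1, Ltb (3.76 and 1.77) and Gpr183 (1.73 and 1.15) were among those past 1 in both. Bcl2, the survival factor, and Itgb7, the beta-7 integrin chain used in gut homing, had large WT differences of 4.96 and 5.84 but 0.90 and 0.78 in KO. For Itgb7, 11 of 51 WT but 21 of 33 KO Tcf7-negative cells were above 0, while the positive sides had 13 of 16 and 31 of 41. Cd44, the activation-linked hyaluronan receptor, was 1.27 higher in WT and 2.06 lower in KO (difference -2.06). Genes named here and below from a list beyond the naming rule were chosen after their values were seen.

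Of 16 naive and stem-like transcription factor genes besides Tcf7, 13 passed the filter in each genotype, 6 higher by 1 or more in WT and 5 in KO, and 0 lower by 1 in either. The medians were 0.81 and 0.70, against -0.345 and -0.245 over all genes. Of all genes, 11.8% in WT and 4.97% in KO were higher by 1 or more. Foxp1, a keeper of quiescence, was above 0 in 14 of 16 and 23 of 51 WT cells and in 36 of 41 and 18 of 33 KO cells, differences of 3.22 and 1.45. Satb1, a chromatin organizer of thymocytes, differed by 3.05 and 1.08, and Ets1 by 2.18 and 1.13. Klf2, which drives S1pr1 transcription, differed by 1.58 and 0.70. Id3 and Myb, often paired with TCF-1 in stem-like cells, did not pass the filter in either genotype, with differences of 0.32 and 0.24 for Id3 and 0.19 and -0.19 for Myb. In deep T cells this list had medians of 0.33 in WT and 0.32 in KO, against -0.89 and -0.14 over all genes.

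Genes of progenitor exhausted cells did not separate the sides as a list. Of 14 genes, 3 were higher and 3 lower by 1 or more among 10 measured in WT, and 0 and 3 among 9 in KO, with medians of 0.36 and -0.38. Slamf6, their surface marker, was above 0 in 4 of 16 (25%, 7.27 to 52.4) WT Tcf7-positive and 4 of 51 (7.84%, 2.18 to 18.9) negative cells, and in 16 of 41 (39%, 24.2 to 55.5) and 11 of 33 (33.3%, 18 to 51.8) KO cells. Its KO difference of 0.80 became -0.45 in deep T cells, with 38.9% of positive and 50% of negative cells above 0. In WT the differences were 0.78 and 0.32. Cxcr5, the follicular chemokine receptor, was above 0 in 1 of 16, 2 of 51, 4 of 41 and 1 of 33 cells and did not pass the filter. Xcl1, a chemokine that draws cross-presenting dendritic cells, was found in 4 of 16 and 2 of 51 WT and in 7 of 41 and 3 of 33 KO cells. Xcl1 was below the filter in KO, where its difference of 0.52 became -0.18 in deep T cells. In WT its differences were 1.80 and 1.78. Tnfrsf4, the costimulatory receptor OX40, was found in 0 of 16 and 12 of 51 WT cells and in 3 of 41 and 7 of 33 KO cells, and Icos differed by -1.39 and -1.54. The intervals of Slamf6, Cxcr5 and Xcl1 overlapped between the sides in both genotypes.

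**Figure D3:**
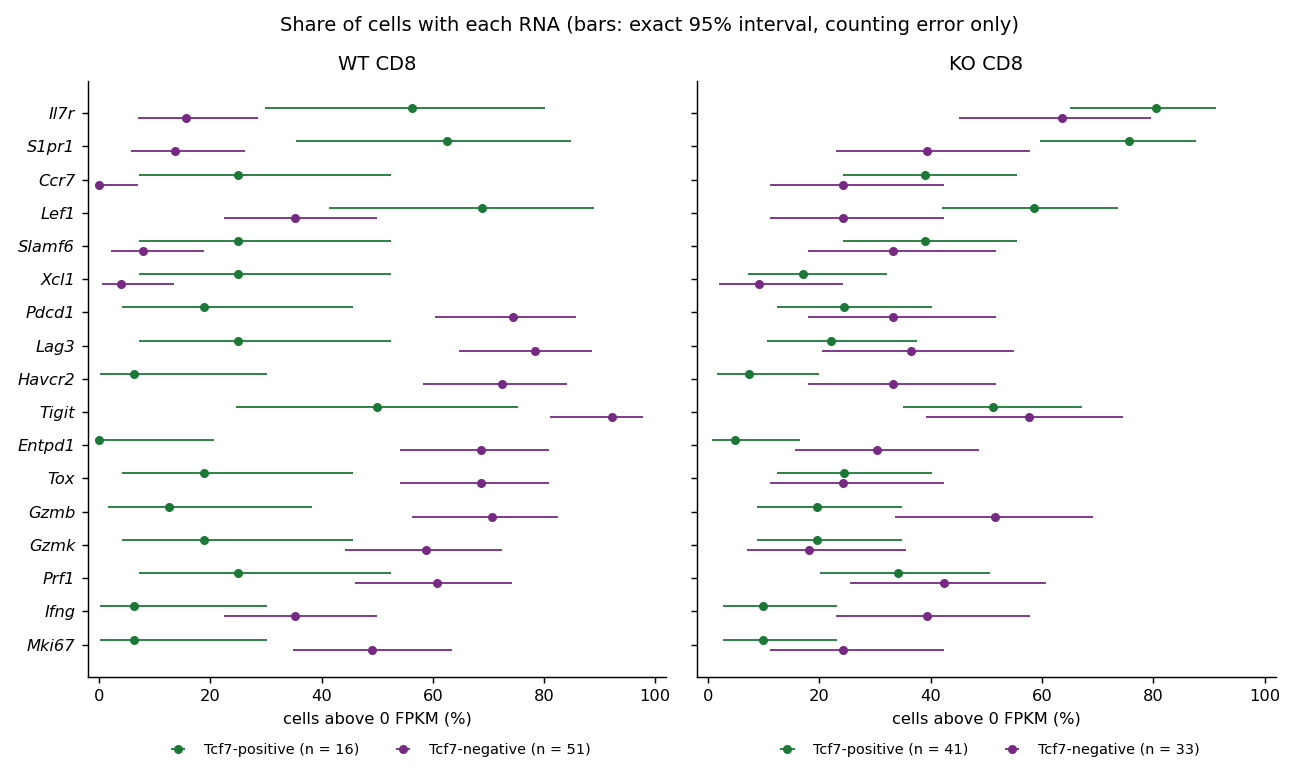
Share of CD8 cells above 0 FPKM for 17 genes chosen by role, in percent, for Tcf7-positive and Tcf7-negative cells of WT and KO-labelled samples, with exact 95% intervals. Intervals of Pdcd1, Lag3, Havcr2, Tigit, Entpd1 and Tox do not overlap in WT, and in KO those of these 6 genes overlap.

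Coinhibitory receptor RNA was lower in WT Tcf7-positive cells, with a smaller difference in KO. Pdcd1, which encodes PD-1, had a median of 0 and a highest level of 9.15 in 16 WT Tcf7-positive cells, and a median of 10.69 and a highest level of 12.15 in 51 negative ones. It was above 0 in 3 of 16 (18.8%, 4.05 to 45.6) and 38 of 51 (74.5%, 60.4 to 85.7). In KO it was above 0 in 10 of 41 (24.4%, 12.4 to 40.3) and 11 of 33 (33.3%, 18 to 51.8), with a median of 0 on both sides. The differences were -6.27 in WT and -1.75 in KO. Havcr2, which encodes TIM-3, was found in 1 of 16 and 37 of 51 WT and in 3 of 41 and 11 of 33 KO cells, differences of -5.85 and -1.91. Entpd1, which encodes the ectonucleotidase CD39, was found in 0 of 16 WT Tcf7-positive cells, where 3 counts of 16 give 18.8% as the limit on cells with a read and the exact interval reaches 20.6%, in 35 of 51 WT negative cells, and in 2 of 41 and 10 of 33 KO cells. Lag3 differed by -5.79 and -1.63 and Tigit by -5.03 and -0.94. For Pdcd1, Lag3, Havcr2 and Tigit the intervals of the WT and KO shares overlapped among Tcf7-positive cells and did not among Tcf7-negative cells.

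Of 17 coinhibitory genes measured, 11 were lower and 3 higher by 1 or more in WT (median -1.33), and 7 and 2 in KO (median -0.60). Over all genes, 24.1% in WT and 16.3% in KO were lower by 1 or more, with medians of -0.345 and -0.245. Btla and Cd96 were the members higher by 1 or more in both, at 1.12 and 1.60 for Btla and 1.80 and 1.56 for Cd96. Ctla4 differed by -4.79 in WT and 0.21 in KO, and Cd38 by -2.40 and 0.38. In deep T cells the WT differences of Pdcd1, Havcr2 and Lag3 were -9.01, -8.12 and -8.03, and Pdcd1 was above 0 in 96.4% of Tcf7-negative against 18.8% of positive cells. In KO deep T cells the differences of Pdcd1, Havcr2 and Lag3 were -1.44, -1.33 and -0.92. Pdcd1, Havcr2, Lag3 and Entpd1 were lower in both genotypes under all 18 settings, and Tigit in KO under 17. Settings that change only the gene filter leave these values as they were, and most settings reuse the same cells.

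The same receptors and homing genes were counted within each cell. Of Pdcd1, Lag3, Havcr2, Tigit and Entpd1, the median number above 0 was 1 in WT Tcf7-positive, 5 in WT Tcf7-negative, 1 in KO Tcf7-positive and 1 in KO Tcf7-negative cells. In WT Tcf7-negative cells 38 of 51 held 4 or 5 of them and none held exactly 3, while 0 of 16 WT Tcf7-positive cells held 4 or 5. Of Il7r, Ccr7, S1pr1 and Lef1, the medians were 2, 1, 3 and 2, and 3 or more were found in 5 of 16 (31.2%, 11 to 58.7), 1 of 51 (1.96%, 0.0496 to 10.4), 23 of 41 (56.1%, 39.7 to 71.5) and 6 of 33 cells (18.2%, 6.98 to 35.5). Cells with 3 or more of these and 3 or more coinhibitory genes numbered 1 of 16, 0 of 51, 0 of 41 and 1 of 33. Pdcd1 together with Slamf6, the pair that marks progenitor exhausted cells, was found in 1 of 16 (6.25%, 0.158 to 30.2), 4 of 51 (7.84%, 2.18 to 18.9), 5 of 41 (12.2%, 4.08 to 26.2) and 2 of 33 cells, shares whose intervals overlap. Among cells holding Pdcd1, Slamf6 was found in 1 of 3, 4 of 38, 5 of 10 and 2 of 11, which are few cells. Pdcd1 with Havcr2 was found in 0 of 16, 34 of 51, 2 of 41 and 7 of 33. S1pr1 without Pdcd1 was found in 9 of 16, 0 of 51, 26 of 41 and 11 of 33, and S1pr1 at all in 10, 7, 31 and 13. Most cells holding S1pr1 thus had no Pdcd1 RNA read, except among WT Tcf7-negative cells. In KO few cells of either side held Pdcd1, 10 of 41 and 11 of 33, so there this does not set the sides apart.

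**Figure D4:**
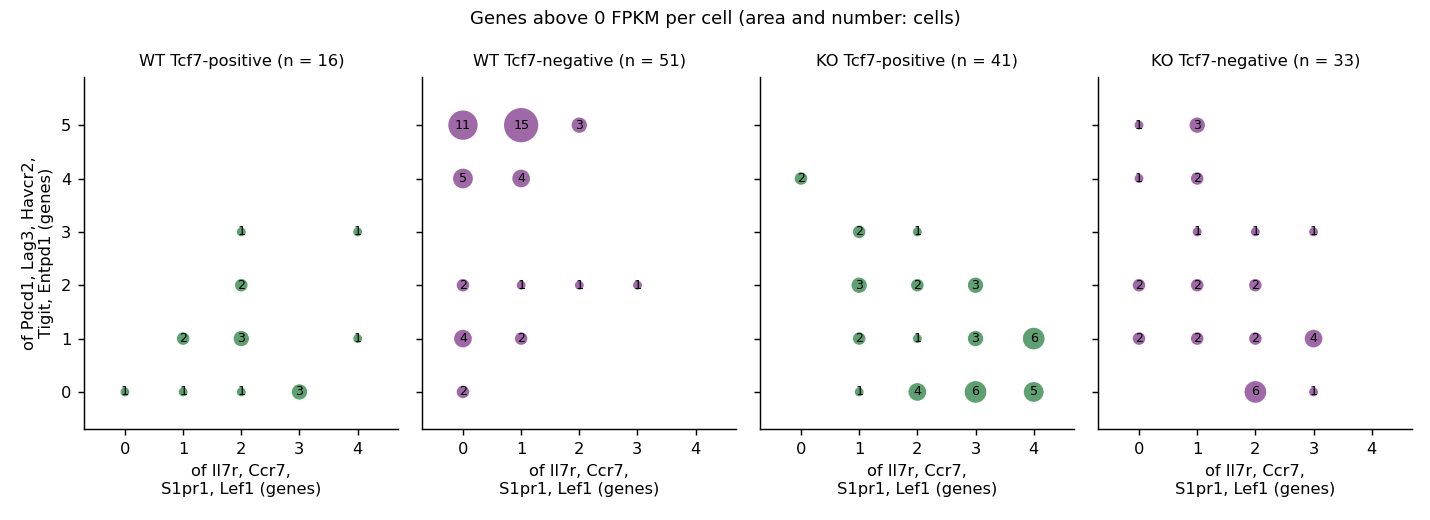
Number of memory and homing genes (Il7r, Ccr7, S1pr1, Lef1, horizontal) and of coinhibitory genes (Pdcd1, Lag3, Havcr2, Tigit, Entpd1, vertical) above 0 FPKM in each CD8 cell, where the area and the figure in each circle give the number of cells. WT Tcf7-negative cells gather at 4 or 5 coinhibitory and 0 to 2 memory genes, Tcf7-positive cells of both genotypes lie toward lower right, and KO Tcf7-negative cells spread over both regions.

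Of transcription factor genes of exhaustion and effector cells, 11 of 19 in WT were lower by 1 or more and 2 higher. In KO 9 of 18 were lower and 0 higher, with medians of -1.77 in WT and -0.98 in KO. Over all genes, 24.1% in WT and 16.3% in KO were lower by 1 or more, with medians of -0.345 and -0.245. Irf8 was above 0 in 1 of 16 (6.25%, 0.158 to 30.2) and 24 of 51 (47.1%, 32.9 to 61.5) WT cells and in 2 of 41 (4.88%, 0.596 to 16.5) and 14 of 33 (42.4%, 25.5 to 60.8) KO cells, differences of -3.46 and -3.20. Because myeloid cells also express Irf8, its KO value in deep T cells, -1.76, stands beside these. Nr4a2, an immediate target of T cell receptor signals, differed by -3.67 and -2.74, and Bhlhe40 by -3.70 and -2.03. Id2, which restrains E proteins, differed by -1.98 and -1.72, and Prdm1, which encodes Blimp-1, by -1.49 and -0.82. In deep T cells Prdm1 differed by -2.03 in WT and -0.07 in KO. Tox, the driver of the exhausted chromatin state, was found in 3 of 16 and 35 of 51 WT cells and in 10 of 41 and 8 of 33 KO cells, differences of -3.41 and 0.19. Batf (-3.03 and 0.24) and Maf (-1.77 in WT, below the filter in KO) also differed far less in KO or were not measured there, and Tbx21, which encodes T-bet, differed by 1.91 and -1.60.

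Gzmb, the granzyme of cytotoxic granules, had the largest shared lower difference. WT Tcf7-positive cells had a median of 0 with 2 of 16 (12.5%, 1.55 to 38.3) above 0, and WT Tcf7-negative cells a median of 9.85 with 36 of 51 (70.6%, 56.2 to 82.5). In KO, 8 of 41 (19.5%, 8.82 to 34.9) and 17 of 33 (51.5%, 33.5 to 69.2) were above 0. The means were 1.31 ± 3.60 (SD, n = 16 cells) and 7.39 ± 5.08 (SD, n = 51 cells) in WT and 1.96 ± 4.10 (SD, n = 41 cells) and 5.85 ± 6.10 (SD, n = 33 cells) in KO, and the ranges overlapped in both. Ifng, the interferon-gamma gene, was found in 1 of 16 and 18 of 51 WT and in 4 of 41 and 13 of 33 KO cells, differences of -2.20 and -2.10. The chemokine genes Ccl3 and Ccl4 differed by -3.81 and -1.89 and by -3.90 and -2.08. Prf1, which encodes the pore-forming perforin, differed by -3.85 in WT and -0.86 in KO, and Gzmk by -3.75 and 0.11. Gzmb and Prf1 were found together in 2 of 16, 31 of 51, 4 of 41 and 10 of 33 cells.

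The cytotoxic list as a whole was mixed. In WT 8 of 17 genes were lower and 5 higher by 1 or more, and in KO 7 and 2, with medians of -0.43 and -0.82. Among all genes, 24.1% in WT and 16.3% in KO were lower by 1 or more, with medians of -0.345 and -0.245. Ctsw, a cathepsin of cytotoxic cells, was higher by 3.94 and 1.64 and Nkg7, a granule protein, by 1.14 and 1.18, while Klrd1 and Lamp1 were 3.86 and 3.87 higher in WT and 0.38 and -1.07 in KO. Ccl5, a chemokine of memory and effector cells, was above 0 in 16 of 16 and 39 of 51 WT cells, and its WT difference of 1.75 became -1.74 in deep T cells. In deep T cells the WT median of the list was -2.42, with 12 of 18 lower and 3 higher by 1 or more, where 46% of all genes were lower by 1 and their median was -0.89.

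Chemokine and costimulatory receptor genes went both ways. Cxcr6, the receptor for CXCL16, was above 0 in 7 of 16 and 39 of 51 WT cells and in 22 of 41 and 23 of 33 KO cells, differences of -3.79 and -2.30. Cxcr3 was 2.29 higher in WT and 0.45 in KO. Over 7 chemokine receptors measured in WT, 3 were lower and 2 higher by 1 or more, and over 6 in KO, 3 and 0, with medians of -0.75 and -0.81. Tnfrsf9, which encodes the activation marker 4-1BB, was found in 1 of 16 and 30 of 51 WT cells and in 7 of 41 and 15 of 33 KO cells, differences of -4.05 and -2.02. Cd69, the early activation and retention marker, went the other way, 2.12 and 1.33, though its KO difference was -0.01 in deep T cells. Over 15 costimulatory genes, 6 were lower and 4 higher by 1 or more in WT and 6 and 2 in KO, with medians of -0.16 and -0.92 against -0.35 and -0.24 over all genes, of which 24.1% in WT and 16.3% in KO were lower by 1.

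The other genes with a large shared lower difference were S100a4, Litaf, Capg, Lgals1, the anti-apoptotic Bcl2a1b and Bcl2a1d, and the respiratory chain genes Ndufb7, Uqcrq and Atp5k. S100a4, a calcium-binding protein of migrating effector cells, was above 0 in 1 of 16 and 29 of 51 WT cells and in 12 of 41 and 20 of 33 KO cells, differences of -4.86 and -2.79. Lgals1, which encodes galectin-1, was found on every side in most cells, with medians of 7.85 and 10.22 in WT and 7.46 and 9.69 in KO. Bcl2a1b and Bcl2a1d are near-identical copies that share reads, so their values (-2.73 and -2.90, and -3.84 and -2.91) are uncertain. Oxidative phosphorylation genes were lower by 1 or more in 11 of 22 in WT (3 higher) and in 9 of 22 in KO (1 higher), with medians of -1.10 and -0.72, and glycolysis genes in 7 of 15 and 6 of 13, with medians of -0.97 and -0.64. Of all genes, 24.1% in WT and 16.3% in KO were lower by 1 or more. In deep T cells the oxidative phosphorylation medians were -2.91 in WT, with 21 of 22 lower by 1 where 46% of all genes were, and -0.18 in KO. The WT directions turned without cells holding many proliferation genes: the oxidative phosphorylation median was 0.83 without cells with 15 or more and 4.14 without those with 5 or more, and the glycolysis median 0.21 and 1.25. The WT median over all genes moved too, from -0.35 to 0.38 and 1.09. WT Tcf7-negative cells lacking B2m or Cd3 RNA stayed in both sets, and their part in this turn was not tested.

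Proliferation genes separated the sides in WT. Mki67, the marker of dividing cells, was above 0 in 1 of 16 (6.25%, 0.158 to 30.2) WT Tcf7-positive and 25 of 51 (49%, 34.8 to 63.4) negative cells, and in 4 of 41 (9.76%, 2.72 to 23.1) and 8 of 33 (24.2%, 11.1 to 42.3) KO cells. Of 37 genes measured in WT, 32 were lower by 1 or more and 1 higher, median -1.91, and of 21 in KO, 3 and 0, median -0.26. Over all genes, 24.1% in WT and 16.3% in KO were lower by 1 or more, with medians of -0.345 and -0.245. The KO list thus lay near all genes. Top2a differed by -3.34 in WT, where Tubb5 (0.56) and H2afz (1.03) were the members above 0. Without the cells that hold 15 or more of the 40 genes above 10 FPKM, a rule chosen after seeing the data that left 16 and 33 WT cells, the WT median was 0.14 while the Pdcd1 difference was -4.62, Havcr2 -4.75 and Gzmb -4.29. With Tcf7-negative cells matched to positive ones on the number of genes detected, 16 against 16 in WT, the proliferation median was 0.10 and the Pdcd1 difference -6.66. Leaving out every cell with 5 or more proliferation genes left 4 Tcf7-positive and 12 negative WT cells and 8 and 8 KO cells. There the Gzmb difference in WT turned to 1.02 and the Emb difference in KO to -1.002. Most of these 12 WT Tcf7-negative cells lacked B2m or Cd3 RNA. The WT median over all genes was 1.087 there, and 89.2% of genes past 1 were higher.

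Several gene groups differed between the genotypes or with the cells kept. Over all genes, 11.8% in WT and 4.97% in KO were higher by 1 or more, and 24.1% and 16.3% lower. Their medians were -0.345 and -0.245. Of 11 and 8 Wnt and TCF partner genes measured, 3 were higher and 2 lower by 1 in WT and 0 and 2 in KO, with medians of 0.03 and -0.48, and Axin2, a usual reporter of beta-catenin signalling, did not pass the filter. Tle5, listed under its older symbol Aes, is a short partner protein of the Groucho family and differed by -2.80 and -0.94. Immediate early genes had medians of 1.11 in WT (9 of 16 higher by 1) and 0.33 in KO (2 of 18), led by Junb (2.14 and 1.38) and Fos (2.05 and 1.17). In WT deep T cells the median was -0.001, with 3 higher and 5 lower by 1 of 18, and Junb differed by 0.12 while Fos was still higher by over 1. In KO deep T cells Junb differed by 1.54 and Fos by 0.81. Interferon-stimulated genes had medians of 0.56 and -0.23, with 6 higher and 4 lower by 1 of 25 in WT, and of -0.25 and -0.05 in deep T cells. Receptors, kinases and targets on the IL-27 and IL-10 routes had medians of -0.22 and -0.21. Among them Il10ra differed by -3.62 and -0.78, Socs3, an inhibitor of cytokine signalling, by 1.83 and 1.88, and Il27ra by -0.74 and -0.23.

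Of cytoplasmic ribosomal protein genes, 24 of 24 were higher by 1 or more in WT, with a median of 2.36, and 2 of 24 in KO, with a median of 0.50. Of housekeeping genes, 11 of 16 were higher by 1 in WT, with a median of 1.86, and 0 of 16 in KO, with a median of -0.31. The shares of all genes higher by 1 or more were 11.8% in WT and 4.97% in KO. In WT deep T cells the ribosomal and housekeeping medians were 0.07 and -0.75, 0 of 24 and 0 of 16 genes were higher by 1, and the median over all genes moved from -0.35 to -0.89. There 4.05% of 7533 genes were higher and 46% lower by 1 or more, and in KO deep T cells 7.87% and 14.4% of 6288. Whether depth or these cells account for the differences of single genes was not tested.

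**Figure D5:**
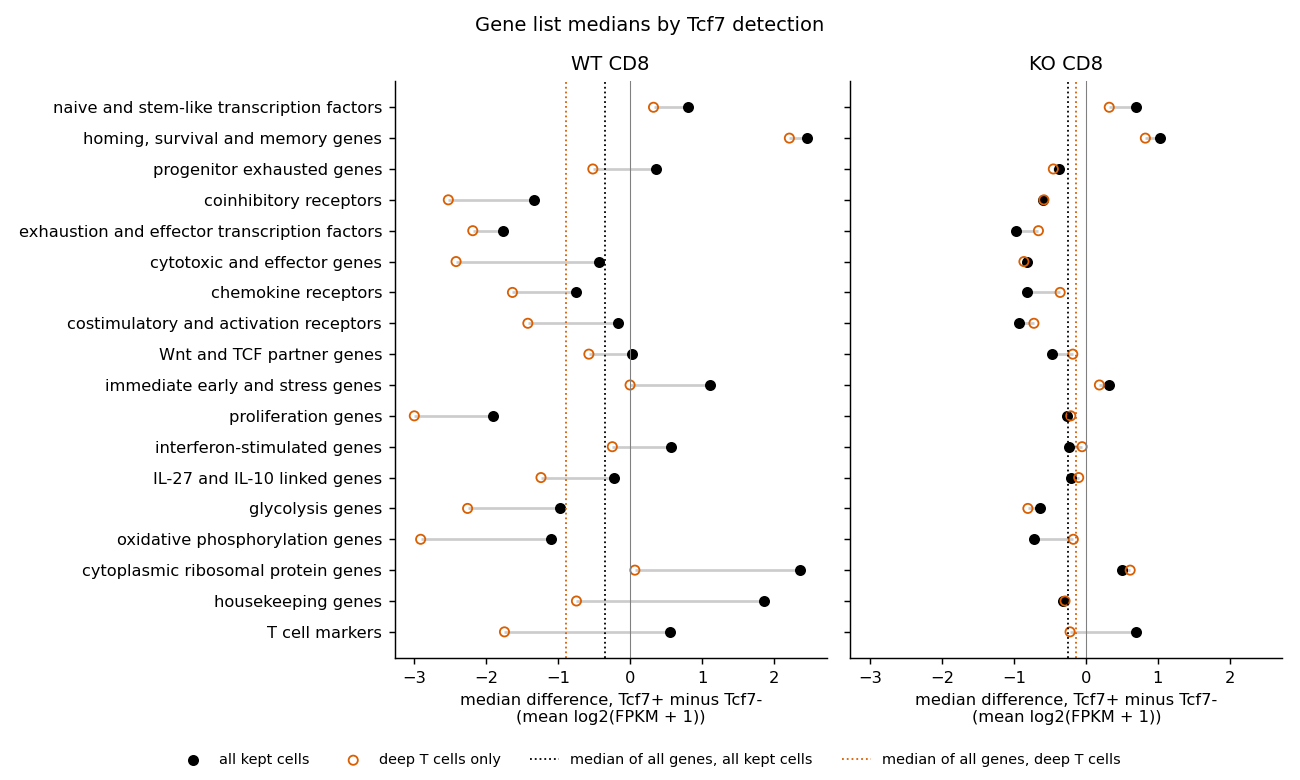
Median difference of each gene list, Tcf7-positive minus Tcf7-negative CD8 cells, in mean log2(FPKM + 1), for all kept cells (filled) and deep T cells (open), with dotted lines for the median over all genes. Homing, survival and memory genes lie right of 0 and coinhibitory genes left of 0 in both genotypes and both sets of cells, and the ribosomal and housekeeping medians of WT move toward or past 0.

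Genes among the largest differences of 1 genotype are given with their value in the other, with no test of the contrast. Some of them passed 1 in both genotypes. In WT, Tsc22d3, the glucocorticoid-induced leucine zipper, differed by 4.84 (KO -0.10), the interferon-induced GTPase Tgtp2, which has a close copy, by 4.99 (KO 0.89), and Rgs16, a damper of G protein signals, by -5.60 (KO -1.90). Rgs16 was above 0 in 0 of 16 WT Tcf7-positive and 31 of 51 negative cells. In KO, Slfn1, a Schlafen gene linked to quiescence, differed by 3.52 (WT 1.58) and was found in 27 of 41 and 7 of 33 cells. Cst3, a protease inhibitor abundant in antigen-presenting cells, differed by -3.76 in KO (WT -1.77) and by -2.21 in KO deep T cells (WT -3.84). Xbp1, a factor of the secretory stress response, differed by -3.38 in KO (WT -0.77) and by -2.71 in KO deep T cells (WT -1.19). The 5 class II antigen presentation genes measured in KO were all lower by 1 or more, with a median of -2.78. Without the cells holding 3 or more of the other markers, at most 1 of these class II genes passed the filter. The other markers include the class II genes themselves, so this loss follows from the rule that removes the cells.

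The same division of the CD4 cells of these tumours gave 32 Tcf7-positive and 47 negative WT cells and 23 and 55 KO cells. There 417 of 5065 genes (8.23%) were higher by 1 or more in WT and 473 of 5935 (7.97%) in KO, and 16.5% and 15% lower. Homing, survival and memory genes had medians of 1.17 (11 of 19 higher by 1) and 1.03 (10 of 19), and coinhibitory receptors of -1.97 and -1.73. S1pr1 differed by 3.76 and 4.15, Lef1 by 3.86 and 2.39, Il7r by 1.52 and 2.65, and Gzmb by -4.55 and -4.71 in CD4 WT and KO cells. Emb differed by 2.50 and 3.82 and Pdcd1 by -3.95 and -1.85. The difference of the CD8 and CD4 values was not tested.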

How the data were processed

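RNA was measured in single T cells of B16F10 tumours with Smart-seq2, which has no molecular identifiers, so reads are not counts of molecules. The values are FPKM as deposited, estimated by the authors with Bowtie and RSEM on mm10, per the submitters' processing notes, and scaled with TMM factors, per the labels. Tool versions and the gene annotation are not given in the sources used here. RSEM divides reads between similar transcripts, so close paralogs are uncertain.

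All 378 columns of the table of 23420 genes were matched to a sample by title. For each genotype the difference of mean log2(FPKM + 1), with a pseudocount of 1, and the share of cells above 0 FPKM were computed over genes above 0 in at least 20% of cells of either side. A difference of 1 or more is a size used for description and not a test. With 1 sample per genotype there is no replicate check, and intervals cover counting error only. Leaving out groups of cells and using other pseudocounts, filters, thresholds and scalings were tried as 18 alternatives, of which the deep T cell set and the rule of 15 proliferation genes were chosen after seeing the data. The members and gene lists were chosen with earlier results of these data known. Of the listed symbols, 5 were matched under an older name and 2 were not analysed here.

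Reads per cell were estimated from the steps in low FPKM values with GENCODE M21 transcript lengths. The fit put 82.3% of the low values of the median kept CD8 cell within 0.1 of an integer number of reads. The precision of a cell's value is limited by this depth. The estimate was tested on simulated data.

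Named genes were the 12 either way with the largest shared difference, the 6 either way with the largest in each genotype, the 2 of each of 17 lists with the largest mean difference either way, and a fixed set. T cell receptor, immunoglobulin, mitochondrial, predicted, RIKEN and small RNA genes were left out. A few genes that the rule or a marker list holds are not reported here. Besides these lists, 12 marker lists were read per cell, of T cells, CD8 chains, CD4 lineage, macrophages and monocytes, class II antigen presentation, dendritic, B, NK, melanoma, neutrophil, erythroid, and stromal and endothelial cells. Promoter windows came from RefSeq (GRCm38.p6). Cells were handled in wells and no doublet caller was run, so wells holding more than 1 cell may remain. Python 3.11.15, numpy 2.4.6, pandas 2.3.3, scipy 1.17.1 and matplotlib 3.10.9 were used.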

Additional observations from a re-analysis of the deposited data

Results flagged for a closer look

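Over all kept cells, the WT and KO differences, Tcf7-positive minus Tcf7-negative, had opposite signs in each pair below, and with 1 sample per genotype the contrast between them was not tested. Among gene lists, the median of progenitor exhausted genes was 0.362 in WT and -0.380 in KO, that of Wnt and TCF partner genes 0.025 and -0.478, that of interferon-stimulated genes 0.564 and -0.233, and that of housekeeping genes 1.861 and -0.313. Tsc22d3, a glucocorticoid-induced gene, differed by 4.84 in WT and -0.10 in KO, and was above 0 in 25 of 51 WT and 26 of 33 KO Tcf7-negative cells. Eif3g, a translation initiation subunit, differed by 2.72 and -3.31, and kept opposite signs in deep T cells at 0.76 and -3.48, as did Tsc22d3 at 3.70 and -0.50 and Gzmk at -6.65 and 0.64. Tox differed by -3.41 and 0.19 and Gzmk by -3.75 and 0.11, and 18.2% of KO Tcf7-negative cells held Gzmk, which was below the filter in KO, against 58.8% in WT. Ccl5 differed by 1.75 and -0.17. Of the CD8 chains, Cd8a differed by 0.68 in WT and -0.86 in KO, and Cd8b1 by -2.38 and 0.25. In deep T cells these other pairs had the same sign: the medians were -0.519 and -0.454 for progenitor exhausted, -0.574 and -0.183 for Wnt and TCF partner, -0.248 and -0.054 for interferon-stimulated and -0.747 and -0.291 for housekeeping genes, and the differences -5.51 and -0.09 for Tox, -1.74 and -1.28 for Ccl5, -1.56 and -1.48 for Cd8a and -4.93 and -0.83 for Cd8b1.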

How the results depend on the processing

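Over the 18 alternatives, 2102 of 2808 values of named genes kept their direction and stayed within 1.5 times, 34 turned from a difference past 1, and the other 672 moved further or turned from a difference under 1. The filter at 5% of cells, no filter and detection above 10 FPKM change only which genes are measured. A single gene's difference is the same under them by design, so the first count overstates stability. Of 664 list medians, 11 turned from a value past 1. The results that moved by over 1.5 times in count or in share are given as shares of genes tested, a measure chosen after seeing the counts, whose values over all kept cells were 11.8% higher and 24.1% lower in WT, 4.97% and 16.3% in KO, and 2.03% and 6.52% in both, with r at 0.301 across genes. Causes were not tested. With a pseudocount of 0.1, the shares were 38.2% lower in WT, 9.93% higher in KO, 29.2% lower in KO, 3.96% higher in both and 13.6% lower in both. With a pseudocount of 10, the shares were 5.14% higher in WT, 7.95% lower in WT, 1.11% higher in KO, 4.57% lower in KO, 0.666% higher in both and 1.33% lower in both. With genes above 0 in 5% of cells, the shares were 7.31% higher in WT, 15.3% lower in WT, 3.03% higher in KO, 10.2% lower in KO, 1.16% higher in both and 3.9% lower in both. With no filter on low values, the shares were 5.65% higher in WT, 11.8% lower in WT, 2.46% higher in KO, 8.32% lower in KO, 0.962% higher in both and 3.22% lower in both. At a minimum of 500 genes per cell, the shares were 15.9% lower in WT, 10.5% higher in KO, 9.14% lower in KO, 6.12% higher in both and 2.65% lower in both. At a minimum of 2000, the shares were 5.01% higher in WT, 38% lower in WT, 1.14% higher in both and 10.3% lower in both. In WT the direction turned for Ccl5 (-0.411). From the log of mean FPKM, the share was 9.74% higher in KO, and r was 0.181. Turned directions in WT were those of the median of housekeeping genes (-0.049) and Ccl5 (-1.006). Directions turned in KO for Fos (-0.719) and Ccr7 (-1.196). With cells matched on genes detected, the shares were 23% higher in WT, 15.6% lower in WT, 7.92% higher in KO, 3.35% higher in both and 3.23% lower in both, and r was 0.157. Directions turned in WT for the median of proliferation genes (0.102), Tk1 (0.359) and Pgam1 (0.244). After thinning to 150000 reads, the shares were 4.33% higher in WT, 49.2% lower in WT, 1.15% higher in both and 13.1% lower in both. In WT the direction turned for the median of immediate early and stress genes (-0.105), the median of housekeeping genes (-0.693), Lck (-0.226), Ly6c2 (-0.417) and Ccl5 (-1.416). Without cells lacking B2m or Cd3 RNA, the shares were 4.61% higher in WT, 39.4% lower in WT and 1.01% higher in both. Turned directions in WT were those of the median of housekeeping genes (-0.038) and Ccl5 (-0.999). Without cells with 3 or more myeloid markers, the shares were 8.58% higher in KO and 4.1% lower in both. Without cells with 5 or more proliferation genes, the shares were 52.8% higher in WT, 6.37% lower in WT, 15.6% higher in KO, 35.7% lower in KO, 9.27% higher in both and 2.09% lower in both, and r was -0.041. Directions turned in WT for the median of proliferation genes (0.178), the median of oxidative phosphorylation genes (4.139), Gzmb (1.019), Litaf (0.963), Ndufb7 (1.603), Uqcrq (1.886), Atp5k (1.229), Slfn1 (-0.738), Cst3 (5.070), Csnk1a1 (2.829), Pgam1 (1.638), Tpi1 (0.209), Id2 (2.515) and Cd8b1 (0.351). Directions turned in KO for Emb (-1.002), Uqcrq (1.301), Foxp1 (-0.339), Cd69 (-2.120), Fos (-1.015) and Ndufa1 (0.008). Without cells with 15 or more of them, the shares were 30.2% higher in WT, 8.42% lower in WT, 3.53% higher in both and 2.48% lower in both, and r was 0.166. In WT the direction turned for the median of proliferation genes (0.135), the median of oxidative phosphorylation genes (0.828), Tk1 (0.098) and Pgam1 (0.352). In deep T cells, the shares were 4.05% higher in WT, 46% lower in WT, 7.87% higher in KO, 0.929% higher in both and 9.85% lower in both. Turned directions in WT were those of the median of immediate early and stress genes (-0.001), the median of housekeeping genes (-0.747), Lck (-0.580), Ly6c2 (-0.258) and Ccl5 (-1.742). Directions turned in KO for Cd69 (-0.012). Of genes past 1, the share that was higher ranged from 8.09 to 89.2% in WT (32.9% over all kept cells) and from 19.6 to 53.5% in KO (23.3%), and the WT median over all genes from -0.975 to 1.087. No paired analysis was possible because the labels' replicate numbers are unique to each cell and no animal is named. With 16 WT Tcf7-positive cells, shares there are the least precise.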

Other observations

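Markers of other cell types were few in most CD8 cells. Counts of cells follow in the order WT Tcf7-positive (n = 16 cells), WT Tcf7-negative (n = 51), KO Tcf7-positive (n = 41) and KO Tcf7-negative (n = 33). At least 3 of 10 T cell markers were above 0 FPKM in 16, 39, 41 and 28 cells, and the CD8 chain genes had a median summed level of 10.04, 11.12, 10.87 and 11.02 on the log2 scale. At least 3 class II antigen presentation genes were found in 0, 2, 0 and 7 cells, at least 3 of 9 dendritic cell markers in 0, 1, 1 and 6, at least 3 of 12 macrophage and monocyte markers in 0, 1, 0 and 3, and at least 3 of 6 CD4 lineage markers in 0, 0, 1 and 3. At least 3 of 7 NK cell markers were found in 2, 1, 1 and 1 cells, at least 3 of 8 melanoma markers in 0, 3, 0 and 0, and at least 3 of 8 stromal and endothelial markers in 0, 0, 0 and 1. No cell held more than 2 of 6 B cell markers, 1 neutrophil marker or 1 erythroid marker. The part of these cells in the differences was not tested beyond the sets of cells given above.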
